A study of Mus musculus with 24 samples.

Results

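The genes of the cytosolic ribosomal proteins were followed through 6 lists of ChIP-seq peaks from mouse neocortex. They were taken as the protein-coding genes of GENCODE vM21 on chromosomes 1 to 19 whose symbol is that of a ribosomal protein of the large subunit (Rpl), the small subunit (Rps), the stalk (Rplp0, Rplp1, and Rplp2), or Rpsa. This gave 76 genes of 20807, and the other 20731 served as the comparison. The 76 comprised 43 large subunit genes, 30 small subunit genes, and 3 stalk genes.

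The data come from cortices of wild-type mice at 2 embryonic stages, E15.5 and E18.5, named by days of gestation, with no further allele or treatment in any group. Chromatin was precipitated with antibodies against 3 transcriptional regulators (TRs): ARID1B of the BAF remodeler, which moves nucleosomes, the forkhead factor FOXP1, and the Wnt pathway factor TCF7L2. The sample labels say TCF4, an older name of TCF7L2 that is also the symbol of a different gene, and the lists were taken as TCF7L2 from the antibody named in the methods. Each TR had 2 ChIP and 2 input libraries per stage (24 in all), and 1 peak list was used per TR and stage. The methods describe calling on merged replicates, but the records attach each list to replicate 1, and this was not resolved here. In either case, no value below carries a spread between replicates, and intervals cover counting error only. Whole cortex was used, so a peak cannot be assigned to a cell type.

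Each ribosome is built from ribosomal RNA and one copy of most ribosomal proteins, and cells keep the supply of these proteins balanced. Their genes are short, broadly active, and known for promoters without a TATA box that start transcription within a run of pyrimidines. A few have paralogs with restricted expression, such as Rpl3l in striated muscle and Rpl10l and Rpl39l in the testis.

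The letters at the start sites differed widely among these genes. The stretches below run from 60 bases before to 10 bases from the annotated reference transcription start site (TSS) on, on the strand of the gene, in GRCm38. They show the genes with the highest enrichment of each TR and 2 paralogs without any peak. Capitals mark the pyrimidine initiator CTTT with its C within 5 bases of the TSS, an ETS motif (CCGGAAG), or a GC box (GGGCGG), each of the last pair on either strand.

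Rps12 (chr10:23787266-23787335, minus strand; highest for ARID1B at both stages and for TCF7L2 at E15.5): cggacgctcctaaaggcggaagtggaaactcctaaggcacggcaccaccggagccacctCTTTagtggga
Rps18 (chr17:33955668-33955737, minus strand; highest for FOXP1 at E15.5): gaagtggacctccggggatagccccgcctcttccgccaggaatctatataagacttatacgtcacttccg
Rps19 (chr7:24884311-24884380, plus strand; highest for FOXP1 at E18.5): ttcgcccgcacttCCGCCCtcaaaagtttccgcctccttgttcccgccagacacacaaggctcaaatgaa
Rps10 (chr17:27635536-27635605, minus strand; highest for TCF7L2 at E18.5): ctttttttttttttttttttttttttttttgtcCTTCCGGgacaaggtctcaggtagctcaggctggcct
Rpl10l (chr12:66284392-66284461, minus strand; no peak): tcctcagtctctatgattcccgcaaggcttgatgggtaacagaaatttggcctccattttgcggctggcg
Rpl3l (chr17:24727760-24727829, plus strand; no peak): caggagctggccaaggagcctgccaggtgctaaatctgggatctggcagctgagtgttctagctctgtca

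At Rps12, the initiator stood 1 base before the annotated start. The start annotated for Rps10 lay away from its peak summits, which were 162 to 334 bp downstream of it. Summits of Rps19 lay 153 to 308 bp downstream of its start, and the FOXP1 summit of Rps18 at E15.5 lay at -248 bp. All of these fell outside the printed stretches. The 300 bases around each reference start are thus only as good as the annotation.

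The first question was how many of these genes carry a peak of each TR at the promoter, defined as the 2000 bp upstream of any TSS. The same 73 of 76 genes (96.1%) had a promoter peak in every one of the 6 lists. Among other genes, the share at E15.5 was 60.7% for ARID1B, 63.2% for FOXP1, and 59.0% for TCF7L2. The shares at E18.5 were 59.3%, 56.5%, and 62.8%. Peaks of all 3 TRs were found at 57.3% of other promoters at E15.5 and at 54.7% at E18.5, and 53.8% had a peak in all 6 lists. No list had a peak at 34.4% of other promoters, against 3 of the 76 genes.

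Most of these genes have promoters rich in CpG, and so do many other genes with peaks. In the 250 bases before and 50 bases after the reference TSS, the median ratio of observed to expected CpG was 0.855 for the ribosomal protein genes and 0.571 for other genes, and 63 of the 76 reached 0.6. Of these 63, 61 had a promoter peak in each list. Among the 9892 other genes with a ratio of at least 0.6, the share was 92.9% (ARID1B), 95.3% (FOXP1), and 92.7% (TCF7L2) at E15.5. At E18.5, it was 91.4%, 90.1%, and 95.5%, and 87.4% had a peak in all 6 lists. Against CpG-rich promoters, the presence of a peak therefore set the ribosomal protein genes only slightly apart. Of the 13 ribosomal protein genes below that ratio, 12 had a peak in all 6 lists, against 22.8% of other genes. This split by CpG was chosen after the data were seen.

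**Figure D1:**
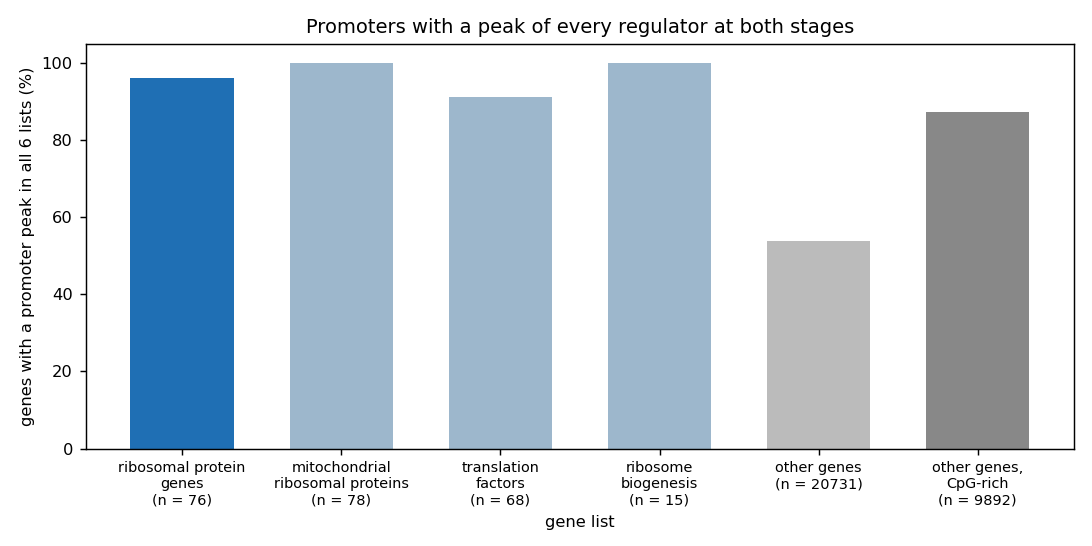
Percent of genes with a promoter peak in all 6 lists (y axis, from 0) for the ribosomal protein genes, related gene lists, all other genes, and other genes with a CpG ratio of at least 0.6. Ribosomal protein genes stood at 96.1%, other genes at 53.8%, and CpG-rich other genes at 87.4%.

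The 3 genes without a peak were all paralogs, and none had a peak in the gene body either. They were Rpl3l (chromosome 17, 24727820 to 24736143), Rpl10l (chromosome 12, 66283379 to 66284401), and Rpl39l (chromosome 16, 10170226 to 10174911). For Rpl10l, the nearest peak lay at least 126351 bp from the TSS in all 6 lists, and for Rpl39l at least 22790 bp. Rpl3l had peaks 2900 to 3102 bp from its TSS, beyond the promoter window. That window overlaps the promoter window of Ndufb10, a subunit gene of respiratory complex I. The CpG ratios were 0.0893 for Rpl3l, 0.643 for Rpl10l, and 0.836 for Rpl39l, so only Rpl3l was poor in CpG. Rps27l, the remaining paralog that met the symbol rule, had a promoter peak in all 6 lists. Its fold enrichments at E15.5 were 4.90 (ARID1B), 11.3 (FOXP1), and 7.02 (TCF7L2), and its partner Rps27 had 4.73, 12.7, and 6.92. At E18.5, Rps27l had 6.59, 9.39, and 7.55, and Rps27 had 5.61, 10.7, and 5.91.

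The height of a peak is its fold enrichment, which divides the reads at its summit, scaled to the smaller library, by a constant background level. The same small value is added to reads and background before the division, which lowers fold enrichments most where the background is lowest. The strongest promoter peak of each gene was used. At E15.5, the median over the 73 genes was 6.15 for ARID1B, against 5.26 for other genes with a promoter peak. For FOXP1 it was 15.1 against 10.8, and for TCF7L2 7.96 against 6.50. At E18.5, the medians were 6.31 against 5.75, 10.7 against 8.80, and 8.10 against 6.68. The ribosomal protein genes thus had the higher median in all 6 lists, by up to 1.40 times (FOXP1, E15.5). Other CpG-rich promoters had medians of 5.44, 11.8, and 6.71 at E15.5, then 5.89, 9.09, and 7.12 at E18.5, also below the ribosomal protein genes. With weaker peaks left out (−log10 p under 15), the ARID1B medians at E18.5 were equal, both 6.31. The differences in medians were not tested. A peak of median height rested on 44 to 118 reads at the summit.

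More of these genes than of others stood in the upper range of each list. The upper quartile of other genes was exceeded by 33 of 73 for ARID1B at E15.5 (other genes 23.6%), 49 for FOXP1 (24.7%), and 38 for TCF7L2 (24.3%). In the E18.5 lists, 26 (24.5%), 37 (24.7%), and 35 (24.4%) exceeded it. The shares of other genes vary because many peaks tie in height. No ribosomal protein gene headed a list. Within the lists, the highest stood at the percentiles 97.8 (TCF7L2, E18.5) to 99.7 (ARID1B, E15.5) of genes with a promoter peak.

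**Figure D2:**
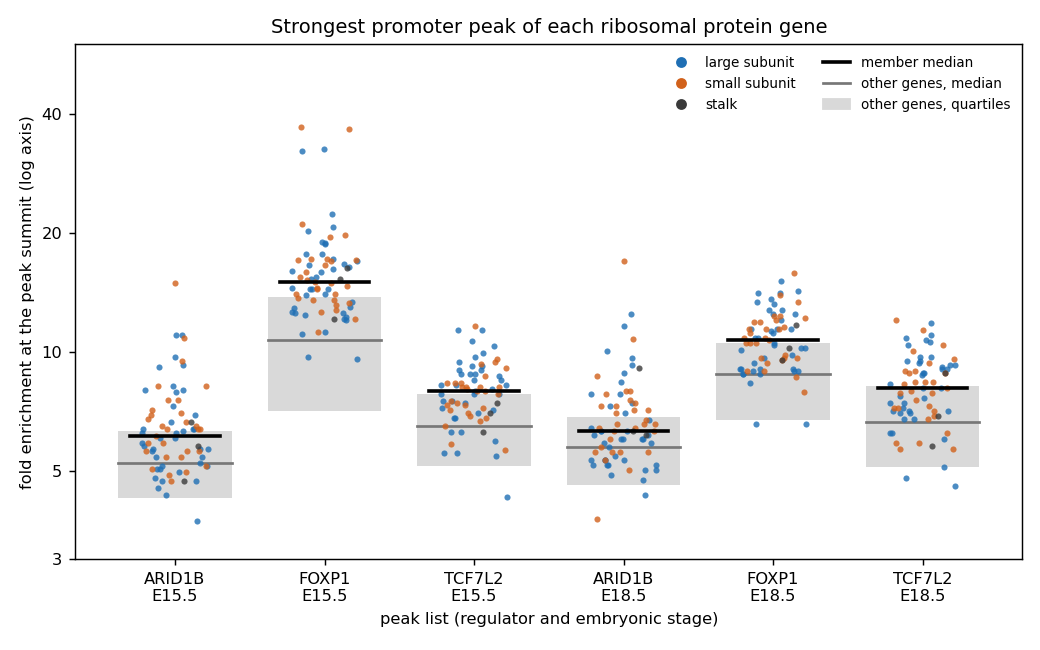
Fold enrichment of the strongest promoter peak (log y axis) of each of the 73 ribosomal protein genes with a peak, by list, with large subunit, small subunit, and stalk genes in different colors. Black bars are their medians, and gray bars and boxes are the median and quartiles of other genes with a promoter peak. The black bar lies above the gray one in all 6 lists, and 4 points stand above 30 for FOXP1 at E15.5.

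Peaks were found at genes of both subunits. Without the paralogs, the 40 large subunit genes and the 29 small subunit genes each had a promoter peak in every list. At E15.5, the median fold enrichment of the large and small subunit genes was 5.97 and 6.41 for ARID1B, 14.9 and 15.1 for FOXP1, and 8.17 and 7.96 for TCF7L2. The pairs at E18.5 were 6.03 and 6.59, 10.5 and 10.9, and 8.21 and 8.10. The small subunit genes had the higher median for ARID1B and FOXP1 and the large subunit genes for TCF7L2 at both stages, and these differences were not tested.

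The stalk genes, whose proteins recruit translation factors to the ribosome, lay within the range of the others. In the order ARID1B, FOXP1, TCF7L2, the fold enrichments of Rplp0 were 5.79, 16.3, and 7.44 at E15.5, then 6.17, 11.7, and 8.87 at E18.5. Rplp1 had 4.73, 12.2, and 6.29 at E15.5, then 6.31, 9.53, and 5.80 at E18.5. Rplp2 had 6.68, 15.3, and 7.02 at E15.5, then 9.12, 10.3, and 6.90 at E18.5. Rplp1 was the lowest of the stalk genes for all 3 TRs at E15.5.

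Genes known from Diamond-Blackfan anemia, a failure of red cell production caused by loss of one copy of a ribosomal protein gene, did not share a pattern. Rps19, the gene most often mutated in that disease, was high for FOXP1 at both stages, with 19.7 at E15.5 and later 15.9, the highest of the 73 at that stage. Its other values were 6.50 and 9.42 (ARID1B and TCF7L2, E15.5) and 6.59 and 10.4 (E18.5). Rps26 was also high for FOXP1 at E15.5, with 21.0, but had 11.2 at E18.5. Its ARID1B values of 5.08 and 5.75 and TCF7L2 values of 5.88 and 5.69 lay below the medians of the ribosomal protein genes. Rpl5 and Rpl11, whose proteins bind MDM2 when ribosome assembly is disturbed, had FOXP1 values of 12.7 and 12.5 at E15.5, below the median. Their ARID1B values were 6.24 and 6.41, and their TCF7L2 values 8.28 and 8.07. At E18.5, Rpl5 had 6.45, 9.09, and 8.32 and Rpl11 6.03, 11.4, and 8.10 for ARID1B, FOXP1, and TCF7L2. Rpsa, which encodes a small subunit protein also known as a laminin receptor, had 6.41, 14.7, and 9.63 at E15.5, then 6.73, 8.65, and 8.87 at E18.5.

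ARID1B was highest at Rps12 (chromosome 10, 23785183 to 23787275), a small subunit gene that holds 3 small nucleolar RNA genes. The fold enrichment there was 14.9 at E15.5 (167 reads, interval 12.8 to 17.4) and 17.0 at E18.5 (120 reads, 14.1 to 20.3), at the percentile 99.7 of both lists. Rpl3, which encodes a protein near the peptidyl transferase center, and Rpl9 followed, both with 11.0 at E15.5 and with 12.5 and 11.6 at E18.5. The intervals of Rps12 and Rpl3 overlapped at both stages. Rps24 had ARID1B values of 10.9 and 10.8, but those summits lay at -3712 and -3668 bp from the reference TSS, close to another annotated TSS and in a promoter window shared with Polr3a. The lowest ARID1B values were 3.75 at Rpl6 and 4.37 at Rpl41 at E15.5 and 3.79 at Rps28 and 4.35 at Rpl15 at E18.5.

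TCF7L2 was also highest at Rps12 at E15.5, with 11.6, followed by Rpl27 and Rpl21, both with 11.4. At E18.5, Rps10 (12.0), Rpl10a (11.8), and Rps12 (11.4) led. The counting intervals of the leading genes overlapped (9.91 to 14.5 for Rps10 and 9.31 to 13.8 for Rps12 at E18.5), so their order was not resolved. The lowest were Rpl24 (4.31) and Rpl6 (5.46) at E15.5 and Rpl24 (4.60) and Rpl37a (4.82) at E18.5.

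FOXP1 stood out at 4 genes at E15.5. The fold enrichment was 37.0 at Rps18 (291 reads, interval 32.8 to 41.4), 36.7 at Rps7 (289 reads, 32.6 to 41.2), 32.7 at Rpl37 (257 reads, 28.8 to 36.9), and 32.3 at Rpl29 (254 reads, 28.4 to 36.5). The next was Rpl3 with 22.3 (19.1 to 25.8), so these 4 lay apart from the other 69 beyond counting error. They encode proteins of both subunits. Of other genes with a promoter peak, 1.97% (258 of 13110) exceeded a fold enrichment of 30 in that list, a limit chosen after the values were seen. At E18.5, the same genes had 10.6 (Rps18), 13.4 (Rps7), 12.5 (Rpl37), and 11.4 (Rpl29), within the range of the other ribosomal protein genes. For ARID1B and TCF7L2 at E15.5, Rps18 had 7.13 and 7.55 and Rps7 had 6.41 and 8.17. Rpl37 had 6.06 and 8.49 and Rpl29 5.70 and 7.55. No ribosomal protein gene exceeded 30 in the other 5 lists. Among other genes, 6 did for FOXP1 at E18.5 and 2 for TCF7L2 at each stage, and none did for ARID1B. The widths of the 4 peaks, 1048 to 1752 bp, lay within the range of 733 to 2110 bp of all 73 genes in that list. At E18.5, Rps19 (15.9), Rpl27 (15.1), and Rpl13a (14.2) were highest for FOXP1. The lowest FOXP1 values were 9.62 at Rpl24 and 9.75 at Rpl37a at E15.5, and 6.59 at both genes at E18.5.

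**Figure D3:**
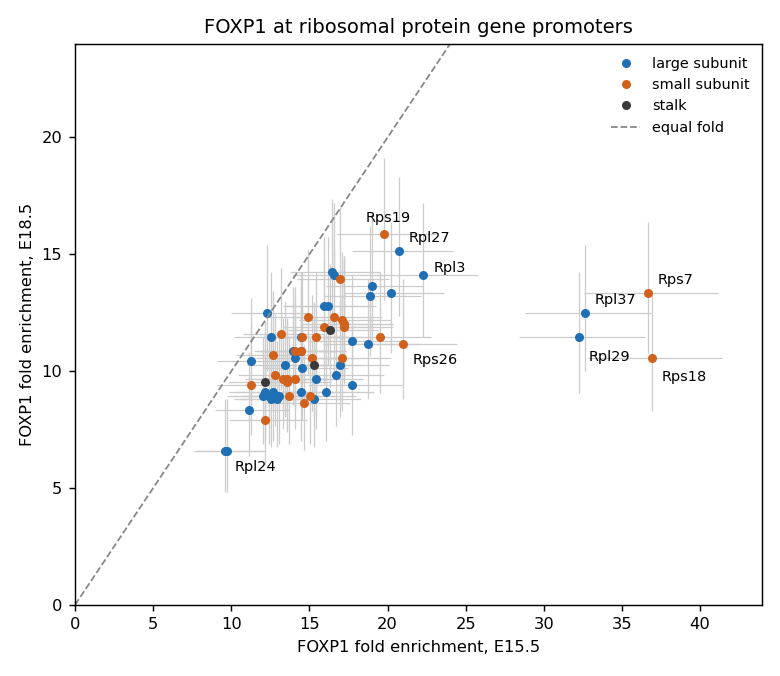
FOXP1 fold enrichment at E15.5 (x axis) and E18.5 (y axis) at the promoters of 73 ribosomal protein genes, with 95% counting intervals as gray lines and the line of equal fold dashed. Rps18, Rps7, Rpl37, and Rpl29 lie between 32.3 and 37.0 at E15.5 and between 10.6 and 13.4 at E18.5.

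FOXP1 values were lower at E18.5 than at E15.5 for 72 of the 73 genes, with a median ratio of 0.713, and the exception was Rpl6 (12.3 and 12.5). Other genes had a median ratio of 0.783. The FOXP1 libraries at E18.5 were the shallowest, with 26.3 M reads in the smaller of ChIP and input against 64.5 M at E15.5. The ChIP libraries held 46.9 M reads at E18.5 and 64.5 M at E15.5, and depth and stage cannot be told apart. The value added to reads and background also lowers fold enrichments most in the FOXP1 list at E18.5, where the background is lowest. Its part in the lower FOXP1 values was not tested. Each gene was also given a percentile among the genes with a promoter peak in a list. This rank depends on how many weak peaks a list holds, and the FOXP1 list fell from 64080 peaks to 24890, the ARID1B list from 71442 to 68472, while the TCF7L2 list grew from 33042 to 53219. The part of list length in the shifts was not tested. From E15.5 to E18.5, the median shift was -3.04 points for ARID1B (other genes -0.62), -4.55 for FOXP1 (-4.46), and -2.05 for TCF7L2 (2.40). The percentile was lower at E18.5 for 46, 53, and 47 of the 73 genes. These counts, and that of lower FOXP1 values, were not taken over other genes and do not set the ribosomal protein genes apart. The median size of the shift, without sign, was 12.0 points for ARID1B (other genes 8.82), 8.28 for FOXP1 (9.34), and 5.89 for TCF7L2 (6.93).

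Single genes moved further between stages. For ARID1B, Rps28 fell by 57.7 percentile points and Rpl17 by 57.0, while Rpl13 gained 32.3 and Rps27l gained 28.8. The fold enrichment at Rps28 was 5.88 (4.56 to 7.47) at E15.5 and 3.79 (2.52 to 5.48) at E18.5, and the intervals overlap. For FOXP1, Rpl6 and Rpl11 gained 28.3 and 18.8 points, and Rpl28 and Rpl13 had shifts of -33.9 and -33.6. For TCF7L2, Rpl23a and Rps14 gained 34.0 and 25.8, and Rps13 and Rps28 had shifts of -31.9 and -29.1. The TCF7L2 fold enrichment at Rpl23a was 7.02 (5.46 to 8.90) and then 10.7 (8.72 to 13.1). These ranks come from lists of different length. Heights were close in the middle of a list. For ARID1B at E18.5, Rpl7a with 36 reads stood at percentile 37.3 and Rpl19 with 40 reads at 51.5. The part of such small differences in the shifts above was not tested.

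Peaks at these genes sat at the start of transcription. The median distance of the summit from the nearest annotated TSS was between -9 bp (ARID1B, E18.5) and 12 bp (TCF7L2, E15.5), where negative is upstream, against -29 to -11 bp for other genes. The summit lay within 250 bp of a TSS for 71 (ARID1B), 73 (FOXP1), and 72 (TCF7L2) of the 73 genes at E15.5 and for 71, 73, and 68 at E18.5. Among other genes, 78.6 to 88.3% did. These genes have more annotated TSSs (median 6 against 3), which brings a summit closer to one of them. The exception farthest away was the TCF7L2 peak of Rpl35 at E18.5, with its summit at -2533 bp. Peaks were as wide as elsewhere, with median widths of 841 to 1223 bp against 799 to 1236 bp.

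**Figure D4:**
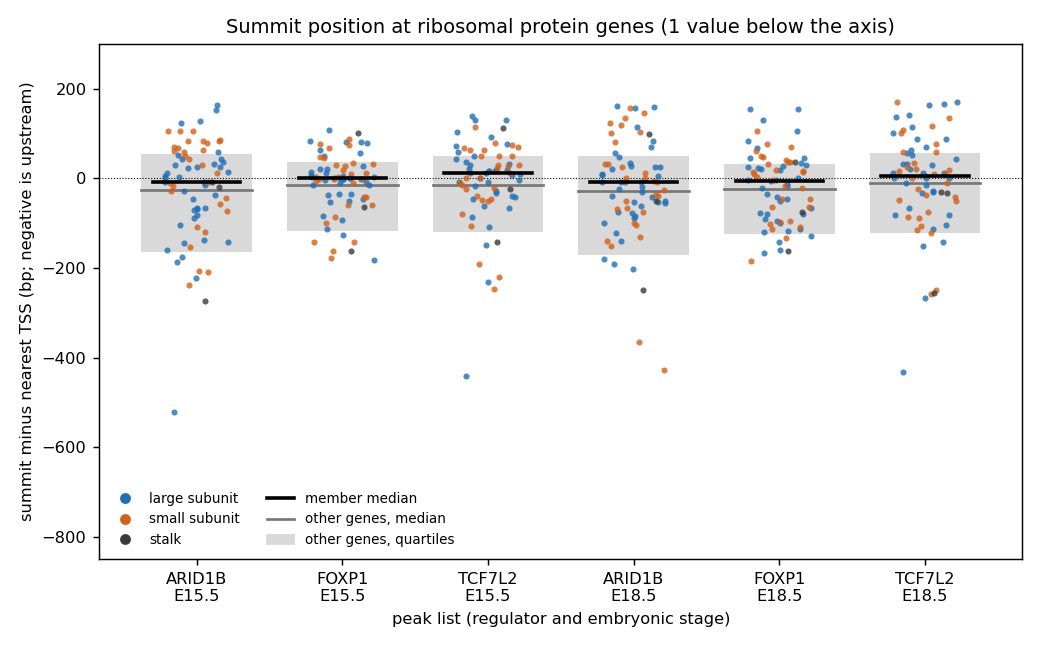
Distance in bp from the summit of the strongest promoter peak to the nearest TSS (y axis, negative is upstream) for the 73 ribosomal protein genes by list, with medians as black bars. Gray bars and boxes are the median and quartiles of other genes, and the Rpl35 value of -2533 bp lies below the axis.

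The 3 TRs shared these sites. The summits of ARID1B, FOXP1, and TCF7L2 at a gene spanned a median of 127 bp at both stages, against 150 bp (E15.5) and 160 bp (E18.5) at other genes. The 3 peaks had bases in common at 71 of 73 genes at E15.5 (other genes 91.5%) and at 69 at E18.5 (90.8%). Between stages, the summits of 1 TR lay a median of 59 bp (ARID1B), 61 bp (FOXP1), and 49 bp (TCF7L2) apart, against 75, 57, and 62 bp at other genes. With reads extended to 200 bp, distances of this size do not separate binding sites.

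Heights of different TRs were related only in part. Across the 73 genes, Spearman's rho between the TRs at E15.5 was 0.471 (ARID1B and FOXP1), 0.575 (ARID1B and TCF7L2), and 0.463 (FOXP1 and TCF7L2), and at E18.5 it was 0.347, 0.460, and 0.579. Between stages of the same TR, it was 0.674 (ARID1B), 0.662 (FOXP1), and 0.787 (TCF7L2). All 15 pairs of lists had a lower rho over the ribosomal protein genes than over other genes, where it ran from 0.582 to 0.911. These are descriptions across genes, which share libraries and chromatin and are not replicates, and the ribosomal protein genes cover a narrower range of heights.

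A peak in the gene body was found at the same 73 of 76 genes in each list. Among other genes, the share at E15.5 was 66.1% (ARID1B), 68.5% (FOXP1), and 62.8% (TCF7L2), and at E18.5 it was 65.1%, 60.5%, and 67.2%. Most of these were promoter peaks that reached across the TSS. With the first 500 bp after each TSS left out, 32.9% (ARID1B), 56.6% (FOXP1), and 42.1% (TCF7L2) of the ribosomal protein genes had one at E15.5, against 47.0%, 54.6%, and 40.7% of other genes. At E18.5, the shares were 23.7%, 17.1%, and 67.1%, against 44.3%, 30.5%, and 51.6%. The ribosomal protein genes were then below other genes for ARID1B at both stages and for FOXP1 at E18.5. Body peaks that were no promoter peak of the gene were found at 8 (ARID1B), 13 (FOXP1), and 10 (TCF7L2) genes at E15.5, against 34.4%, 35.1%, and 23.5% of other genes. At E18.5, 7, 2, and 15 genes had one, against 34.1%, 18.8%, and 32.6%. In any list, 25 of the 76 did, against 48.3%. The ribosomal protein genes are short, with a median of 3400 bp against 17751 bp. Per megabase of gene, they held 29.1, 40.7, and 29.1 such peaks at E15.5, against 29.8, 25.6, and 11.3 in other genes. At E18.5, they held 29.1, 11.6, and 52.4, against 28.6, 6.57, and 21.8. These densities rest on 4 to 18 peaks per list.

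A pair of genes held 22 of these 66 peaks. Rps14 had 15, with summits from -7247 to -26570 bp relative to its reference TSS, inside a gene model of 31449 bp that begins far upstream of it. Rpl3 had 7, with summits from -5397 to -8199 bp, where its model also extends. The ARID1B and TCF7L2 peaks of Rpl3 at E15.5 and E18.5 had summits from -7738 to -7779 bp, apart from a second TCF7L2 peak at E18.5, and heights of 3.84 to 6.17.

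Several promoters were shared. The promoter window of 23 of the 76 genes overlapped that of another protein-coding gene (30.3%, against 17.7% of other genes), such as Rpl9 with Lias and Rps18 with B3galt4 and Vps52. A peak there cannot be assigned to 1 of the genes. Of the remaining 53 genes, 51 had a promoter peak in every list, against 48.2% of other genes with unshared promoters in all 6 lists. Small nucleolar RNA genes lay inside 27 of the 76 (35.5%, against 1.05% of other genes). At E15.5, median fold enrichments of such hosts were 6.41 for ARID1B, 14.7 for FOXP1, and 8.28 for TCF7L2, and 5.88, 15.1, and 7.55 for the rest of the ribosomal protein genes. At E18.5, hosts had 6.45, 10.9, and 8.43, and the rest 6.31, 10.6, and 7.72. The median of hosts was thus higher in every list except FOXP1 at E15.5, without a test.

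Short motifs were counted in the 300 bases around the reference TSS, on both strands. The ETS motif CCGGAAG was present in 25 of 76 (32.9%, against 11.3% of other genes) and the YY1 motif GATGGCG in 7 (9.21%, against 4.30%). The GC box GGGCGG was present in 37 (48.7%, against 46.2%) and CCAAT in 23 (30.3%, against 38.2%). The forkhead motif TGTTTAC of the FOXP1 family was present in 1 gene, Rpl41 (1.32%, against 2.99%). The motif ATCAAAG of the TCF/LEF family, to which TCF7L2 belongs, was present in 1, Rps10 (1.32%, against 3.23%). On the strand of the gene, TATAAA from 40 to 20 bases before the TSS was found in none of the 76, against 2.42%, and the initiator CTTT in 11 (14.5%, against 4.46%). GGGCGG and CCAAT are short enough to occur often by their letters alone, and a match is not a bound site.

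Heights were set beside these letters as a description. For FOXP1 at E15.5, genes with CCGGAAG had a median of 15.2 and those without 14.9, and for TCF7L2 the medians were 7.70 and 8.17. At E18.5, those with CCGGAAG were lower for both, with 10.6 and 10.9 for FOXP1 and 7.99 and 8.32 for TCF7L2. Rpl41, with the forkhead motif, had a FOXP1 value of 15.4 at E15.5, then 9.68 at E18.5, near the medians. Rps10, with the TCF/LEF motif, had the highest TCF7L2 value at E18.5 (12.0) and 8.38 at E15.5. Those summits lay 334 and 286 bp downstream of its reference TSS, outside the bases in which the motif was sought. Genes with the initiator CTTT had medians of 14.4 (FOXP1) and 8.17 (TCF7L2) at E15.5, against 15.3 and 7.96 without it. The later medians were 9.68 and 7.99, against 10.9 and 8.10, so the order for TCF7L2 turned between stages. The widest gap for a motif held by several genes was at the YY1 motif for TCF7L2 at E18.5, with 9.74 in the 7 genes that have it and 8.05 in the others. At E15.5 these medians were both 7.96. Genes with CCAAT had an ARID1B median of 5.70 at E15.5, against 6.41 without it, and both were 6.31 at E18.5.

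Promoter peaks were also counted at other genes of protein synthesis, without a test. All 78 mitochondrial ribosomal protein genes had a promoter peak in all 6 lists, and their E15.5 median fold enrichments were 5.79 (ARID1B), 13.9 (FOXP1), and 6.97 (TCF7L2), below those of the cytosolic ones. At E18.5, their ARID1B median of 6.73 lay above and their FOXP1 and TCF7L2 medians of 10.3 and 7.33 lay below. All 15 genes of ribosome biogenesis and ribosomal RNA transcription had a peak in all 6 lists too, with medians of 6.33, 13.2, and 7.75 at E15.5 and of 7.01, 11.2, and 7.88 at E18.5. Their medians lay above those of the ribosomal protein genes for ARID1B at both stages and for FOXP1 at E18.5, and below in the remaining lists. Among them, Nop56, a core protein of box C/D particles, had a TCF7L2 value of 14.7 at E15.5, then 13.9 at E18.5, above every cytosolic ribosomal protein gene. Pes1 had ARID1B values of 11.9 and 15.4. Of 68 genes of translation factors and their regulators, 62 had a peak in all 6 lists (91.2%), and 3 (Eif4e1b, Eif4ebp3, and Eif3j2) had none.

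Cytosolic ribosomal protein genes outside the rule also had peaks on autosomes. Fau, Rps3a1, Rack1, Rpl36al, Rpl22l1, and Rpl7l1, whose symbols differ, each had promoter peaks in all 6 lists. Fau, which encodes a fusion with a small subunit protein, had 9.61 and 9.82 for ARID1B. The 4 genes on the X chromosome (Rpl10, Rpl36a, Rpl39, and Rps4x) had lower peaks. Their medians were 3.17 (ARID1B), 9.37 (FOXP1), and 4.99 (TCF7L2) at the earlier stage, and Rps4x lacked an ARID1B peak at E18.5. The part of the sex of the embryos in this difference was not tested.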

How the data were processed

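The reads were mapped by the authors with BWA 0.7.15 (GRCm38), filtered by mapping quality, merged across replicates per the methods, and used to call narrow peaks against input with MACS2 2.2.7 without a local background. The deposited lists give, per peak, the fold enrichment (a ratio to background, with the added value described above), a score, and the p-value and q-value of the authors as −log10. The score was not used. Peaks were set against GENCODE vM21, counting from 1, with an overlap of 1 base or more, using Python 3.11.15, pandas 2.3.3, and pysam 0.24.0. The study used another GENCODE release. Background and reads per summit were recovered from the fold and −log10 p of the authors' lists (100% of pairs within 0.01), and exact Poisson intervals (95%) were taken from those reads. The smaller library held 26.3 to 80.7 M reads, and a method check used simulated data. No test was run. The genes named were those without a promoter peak, the 3 highest and 2 lowest per list, the largest percentile shifts, those with most body peaks, the stalk genes, Rpsa, Diamond-Blackfan genes, and paralogs. Genes named beyond these were chosen after their values were seen. The members and gene lists were chosen with earlier results of these data known.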

Additional observations from a re-analysis of the deposited data

How the results depend on the processing

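The promoter counts were recomputed under 8 other settings, the medians under 7, and the gene body counts under 4 (10 distinct settings), and a further one limited to CpG-rich promoters was chosen after seeing the data. Of 103 recomputed counts, 97 stayed within 1.5 times, all promoter counts among them. This limit is wide, since 73 of 76 can hardly rise and 52 of 76 (ARID1B, E18.5, summit in the body) still counted as kept. Counts over smaller sets (51 of 53 unshared and 61 of 63 CpG-rich promoters) were compared with 73 as well. The lowest share with a promoter peak in a list was 84.2% (64 of 76; TCF7L2, E15.5), and in all 6 lists 60 of 76 (other genes 32.7%), both with the summit required in the promoter. The 48 recomputed medians were 0.986 to 1.07 times the reported ones, and 47 lay above that of other genes. The exception was ARID1B at E18.5 with weaker peaks left out (6.31 for both). The 6 counts that moved were gene body counts. Without the first 500 bp after each TSS, 25 (ARID1B), 43 (FOXP1), and 32 (TCF7L2) genes at E15.5 and 18 (ARID1B) and 13 (FOXP1) at E18.5 had a body peak, in place of 73, and the shares at ARID1B (both stages) and FOXP1 (E18.5) fell below those of other genes. With the summit required in the body, 48 did for FOXP1 at E18.5. Fewer bases are searched by construction. No paired analysis was possible because there is 1 list per TR and stage and no test was run. At the depth of FOXP1 at E18.5, peaks under a fold enrichment of 3.21 were not detectable.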
